A study of Mus musculus with 7 samples.

Results

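The genes described here encode the proteins of epithelial cell junctions: 12 claudins, 7 other tight junction genes, EpCAM, 5 classical cadherin and catenin genes, 10 desmosomal genes and 4 connexins. These 39 genes were chosen by function, with earlier results of these data known. They were matched to the count table by symbol, and are 39 of the 54446 genes in it. Of the 39, 37 had enough reads to be tested. Polyadenylated RNA was sequenced from pancreatic spheroids, epithelial cells cultured as small spheres and grown from the pancreas of C57BL/6J wild-type mice. One group of 3 libraries came from untreated mice and the other group of 4 libraries came from mice treated earlier with caerulein, a peptide that overstimulates the pancreas through cholecystokinin receptors and so injures it. Both groups were wild-type with no engineered allele named in the labels, and both were cultured in one medium that held EGF, cholera toxin, hydrocortisone and bovine pituitary extract. The mice's age and the dose and timing of caerulein were not stated in the labels. Nor do the labels say whether the libraries of a group came from separate mice. The p-values below thus describe variation among these libraries only, and that variation may be technical.

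Tight junctions seal the space between epithelial cells near the apical surface. Their strands are built of claudins, some of which close the space and some of which form pores for ions and water, and the strands are tied to actin by scaffold proteins. Adherens junctions and desmosomes hold neighbouring cells together through cadherins that are linked inside the cell to actin and to keratin filaments. Gap junctions are channels of connexins through which neighbouring cells exchange ions and small molecules, and in the pancreas they couple secretory cells.

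Library totals ran from 34783738 to 46744497 counts, and levels are given as counts scaled to library size (CPM, with TMM scaling), where 3 reads correspond to 0.0631 to 0.0841 CPM. All 10 ductal markers were detected, summing to 12792 to 13404 CPM in the untreated and 12550 to 19300 CPM in the post-caerulein libraries, and Krt8 was the most abundant of them. Markers of acinar cells (3 of 10 tested, Amy2a5 at 0) summed to at most 12.3 CPM, islet markers (2 of 8, Ppy at 0) to at most 4.55 CPM, endothelial markers (3 of 8) to at most 3.59 CPM, fibroblast markers (5 of 10) to at most 21.4 CPM and leukocyte markers (2 of 8) to at most 98.4 CPM. The libraries thus carried the markers of ductal epithelium that their cell type label calls for. The fibroblast and leukocyte maxima were both in untreated 3. Untreated 1 and 2 lay close together (biological coefficient of variation 8.44%), as did post-caerulein 2 and 3 (5.74%), while every other pair of libraries differed by 21.9% or more. Within each close pair the counts still differed by more than sampling noise, with a chi-square per gene of 12.6 and 10.3.

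On the axis of largest variation among the libraries (51.7% of the variance), untreated 3 and post-caerulein 4 lay at 70.4 and 58.4. Post-caerulein 1 to 3 lay at -10.8, 8.06 and 5.03, and untreated 1 and 2 at -67.7 and -63.4. Untreated 3 and post-caerulein 4 thus lay together, but the other 5 libraries were not alike. The authors' deposited table was obtained again with a model holding a term for untreated 3 and post-caerulein 4 beside the treatment term. The largest difference in log2 fold change between that model and the authors' deposited table was 3.16e-08, and all 1023 genes that the authors' deposited table called at a false discovery rate under 0.05 were called again. Treatment alone gave 320 calls in the same likelihood ratio test, and a largest log2 difference of 3.98 from the authors' deposited table. The labels do not name what this term stands for. Each comparison below is therefore given by treatment alone, with this pair term, and in the 5 libraries outside the pair, and a gene was called when the Benjamini-Hochberg adjusted p of edgeR's quasi-likelihood test was under 0.05.

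With the pair term, 1 junction gene rose and 2 fell in post-caerulein spheroids. The gene that rose was Cldn18, a claudin of stomach and lung epithelium, and those that fell were Dsc2, a desmosomal cadherin, and Gjb2, a connexin. These 3 of 37 tested members (8.11%) stood against 251 of 16438 genes, or 1.53%. Treatment alone called 0 members by edgeR's quasi-likelihood test against 0% of all genes, with a smallest adjusted p of 0.262 among the members. At an unadjusted p under 0.05 it named 8 members (21.6%) against 9.50% of all genes. DESeq2 called 5 members by treatment alone (Cldn6, Cldn8, Dsg3, Gjb1 and Gjb2), against 3.10% of all genes, and limma-voom called 0 members and 0 genes. With the pair term DESeq2 called 13 members, against 8.45% of all genes, and limma-voom called 5, against 2.05%. The 13 were Cldn2, Cldn3, Cldn6, Cldn8, Cldn18, Cldn23, Tjp1, Dsc2, Dsg3, Gja1, Gjb1, Gjb2 and Gjb5. The 5 were Cldn6, Cldn18, Tjp1, Dsc2 and Gjb2. The groups did not overlap for 7 members, or 18.9%, against 9.32% of all genes: Cldn8, Cldn18, Tjp1, Cdh1 and Gjb1 were higher, and Dsc2 and Gjb2 lower, in every post-caerulein library. The median log2 fold change with the pair term was 0.06 over the members and -0.00 over all genes, and the median absolute log2 fold change was 0.33 against 0.19. Of the 37, 20 had a positive and 17 a negative log2 fold change, so the members as a set had no common direction. Because the list was chosen with earlier results of these data known, its shares beside those of all genes are descriptions only.

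The calls with the pair term changed with the libraries included. Cldn18, Dsc2 and Gjb2 kept the direction of their log2 fold changes whichever library was left out. Whether the smaller number of libraries alone accounts for the lost calls was not tested. The count of called members was 0 without untreated 1 or untreated 2, where 0 genes of all were called. It was 0 without post-caerulein 2 (29 of 16088 genes called) or post-caerulein 3 (3 of 16097 genes), and 1 without post-caerulein 1 (131 of 16239 genes). It was 14 of 37 without untreated 3, against 13.5% of 16828 genes, and 13 of 37 without post-caerulein 4, against 13.0% of 16079 genes. With either of these left out, the pair term fitted the other exactly. Both fits thus rested on the 5 libraries outside the pair and are not separate from the comparison of those 5 alone.

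**Figure D1:**
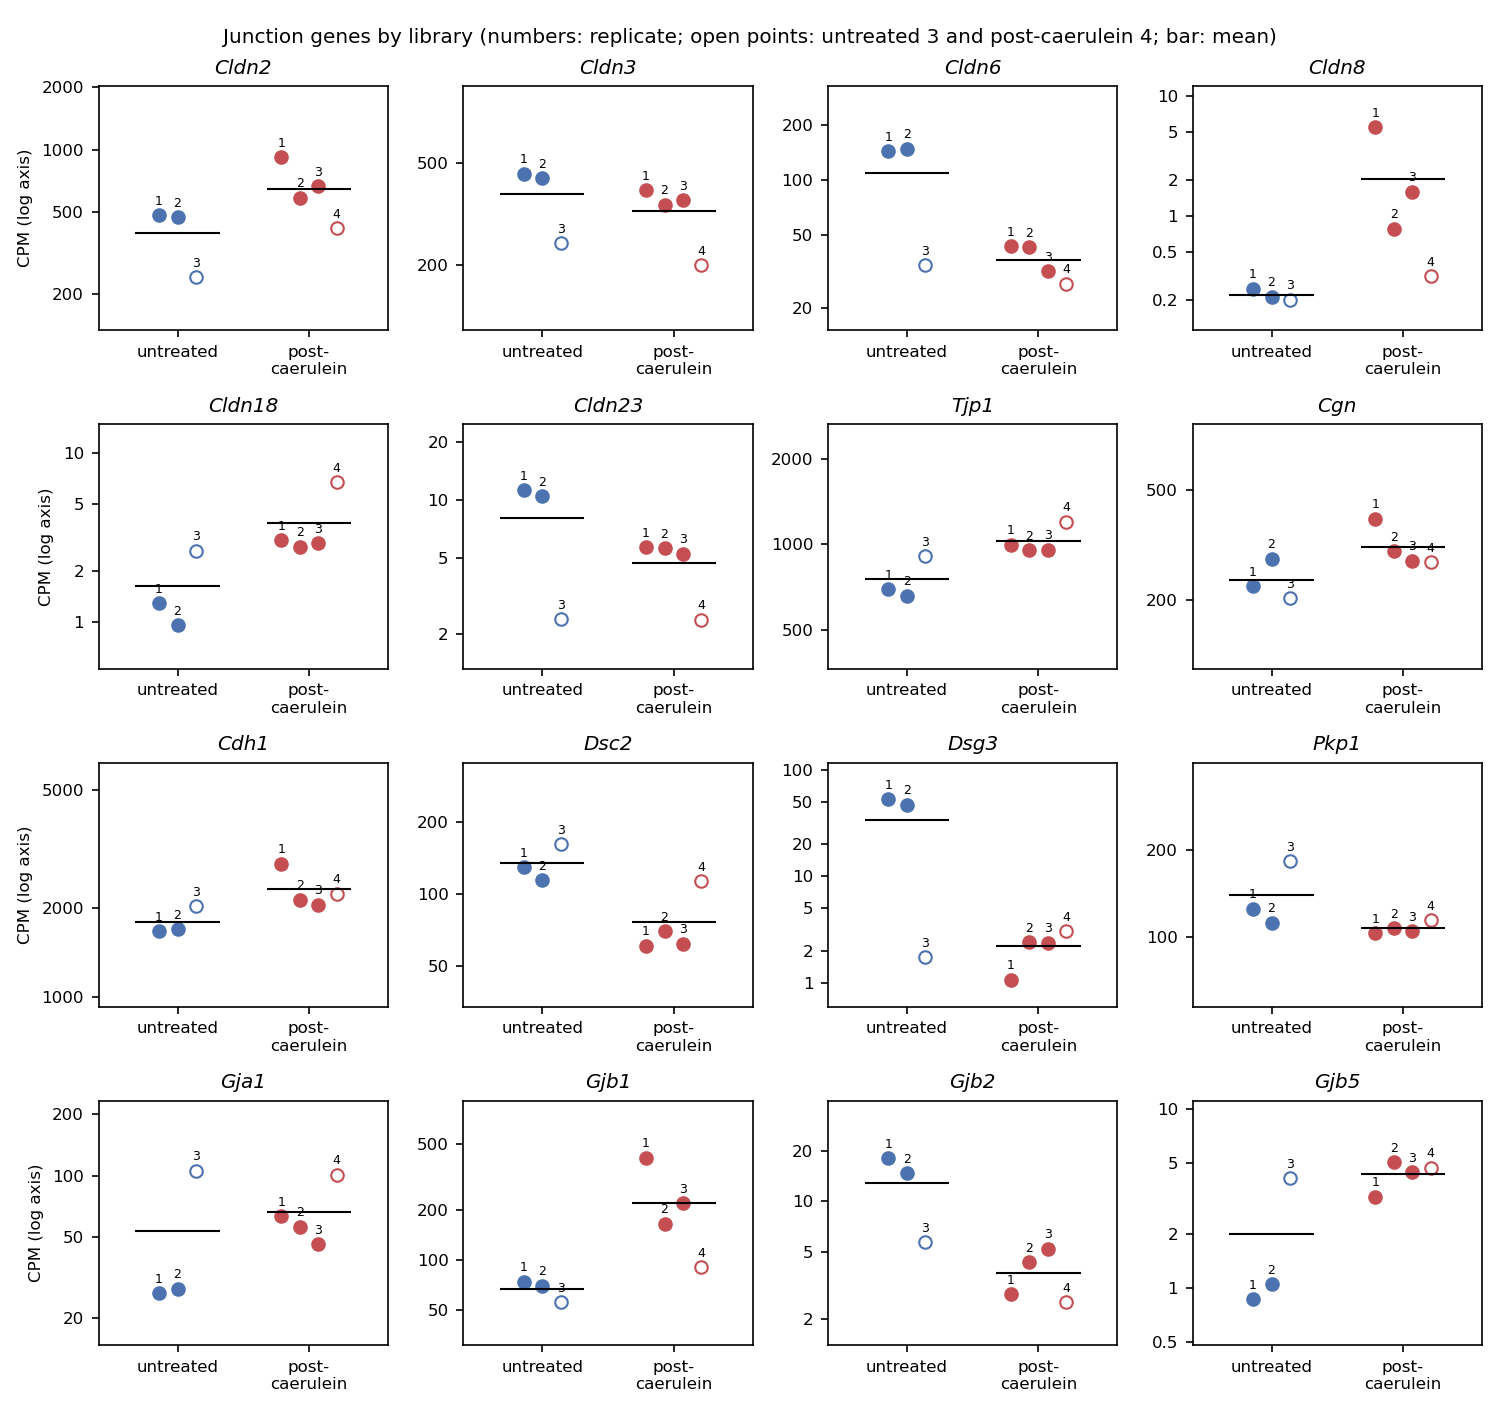
Level of the junction genes named by the rule in each library, as CPM on a log axis, with points for the 3 untreated and 4 post-caerulein libraries and bars for the group means. Cldn18 and Gjb1 sit higher, and Dsc2 and Gjb2 lower, in all 4 post-caerulein libraries than in the 3 untreated ones.

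Among the tight junction members, 4 claudins had the highest levels per length. Per kilobase of exon, the mean level over the 7 libraries was 659 CPM for Cldn4, 275 CPM for Cldn3, 221 CPM for Cldn7 and 178 CPM for Cldn2. Cldn3, Cldn4 and Cldn7 are widely expressed in simple epithelia, and none of them was called by edgeR's quasi-likelihood test in any of the 3 comparisons. DESeq2 with the pair term called Cldn3 lower (adjusted p = 0.0384). Cldn4 was at 1067 to 1520 CPM in the untreated and 864 to 1566 CPM in the post-caerulein libraries. Cldn7 was at 267 to 385 CPM and 280 to 370 CPM.

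Cldn2 encodes the claudin that forms a pore for cations and water. It was at 481, 471 and 242 CPM in untreated 1, 2 and 3 and at 922, 586, 665 and 417 CPM in post-caerulein 1 to 4. Untreated 3 and post-caerulein 4 were the lowest of their groups, and only post-caerulein 4 fell within the untreated range. The means were 398 ± 135 CPM (SD, n = 3) and 647 ± 210 CPM (SD, n = 4). The log2 fold change was 0.66 ± 0.16 (SE) with the pair term (adjusted p = 0.0973) and 0.70 by treatment alone (adjusted p = 0.577), both by edgeR's quasi-likelihood test. As a share of the summed per-length level of 27 claudin genes, Cldn2 held 9.05%, 9.10% and 7.17% in the untreated and 16.9%, 15.1%, 17.4% and 13.3% in the post-caerulein libraries. These shares did not overlap between the groups, and they were not tested. The summed claudin level itself was 1106 to 1746 CPM per kilobase in the untreated and 1026 to 1795 CPM per kilobase in the post-caerulein libraries.

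Cldn6, a claudin of embryonic epithelium, had the opposite order. It was at 144, 149 and 34.3 CPM in untreated 1, 2 and 3 and at 43.6, 42.9, 31.8 and 27.2 CPM in post-caerulein 1 to 4. Untreated 1 and 2 were more than 3 times every other library, and untreated 3 lay within the post-caerulein range. On the log2 scale the fold change was -1.46 ± 0.29 (SE) with the pair term, which missed the threshold (adjusted p = 0.0624, edgeR's quasi-likelihood test). DESeq2 and limma-voom both called Cldn6 lower with the pair term (adjusted p = 3.82e-05 and 0.0492). In the 5 libraries outside the pair Cldn6 fell by 1.87 on the log2 scale (adjusted p = 0.000803, edgeR's quasi-likelihood test), while post-caerulein 4 was lower than untreated 3 by a log2 difference of only -0.33. The per-length ratio of Cldn2 to Cldn6 was 1.88, 1.79 and 3.99 in the untreated and at least 7.71 in every post-caerulein library, again without overlap.

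Cldn18 was a rare transcript that rose. The gene (ENSMUSG00000032473.13) spans chr9:99689461-99717267 on the minus strand of GRCm38. It was at 1.29, 0.949 and 2.63 CPM in untreated 1, 2 and 3 and at 3.03, 2.77, 2.91 and 6.71 CPM in post-caerulein 1 to 4. Every post-caerulein library was above every untreated one, although post-caerulein 2 exceeded untreated 3 by little, and post-caerulein 4 was the highest of all. The means were 1.62 ± 0.886 CPM (SD, n = 3) and 3.85 ± 1.90 CPM (SD, n = 4). The log2 fold change was 1.37 ± 0.20 (SE) with the pair term (adjusted p = 0.0310) and 1.25 by treatment alone (adjusted p = 0.455), by edgeR's quasi-likelihood test. The difference was as large within the pair, at 1.35 on the log2 scale, as in the other 5 libraries, at 1.40. Leaving out any 1 of untreated 1, untreated 2 or post-caerulein 1 to 3 took the adjusted p with the pair term above the threshold, to 0.224 at most.

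Cldn18 is a gene of gastric epithelium in its stomach form, which counts per gene do not separate from its lung form. Of 10 markers of gastric mucous cells 7 were tested, with 6 positive and 1 negative log2 fold change with the pair term. Tff1 and Tff2 were called higher, and Gkn3 was at 0. The 10 markers summed to 248, 255 and 1045 CPM in the untreated and 546 to 757 CPM in the post-caerulein libraries, most of it Ctse. Untreated 3 thus had the highest sum, and the groups overlapped. More cells of a type and more RNA per cell cannot be told apart in bulk RNA, and the part of gastric mucous cells in the Cldn18 result was not tested.

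The 250 bases before the start of Cldn2 and of both Cldn18 starts are shown because the 2 genes differed in level and carry different promoter letters. They come from RefSeq on GRCm38.p6, with capitals marking a TATA box (TATAAA), an E-box bound by Snail and Zeb factors (CACCTG, read as CAGGTG on the other strand) or an AP-1 site (TGANTCA). The first is chrX:139800558-139800807 on the plus strand, and the others are chr9:99710064-99710313 and chr9:99717268-99717517 on the minus strand.
Cldn2: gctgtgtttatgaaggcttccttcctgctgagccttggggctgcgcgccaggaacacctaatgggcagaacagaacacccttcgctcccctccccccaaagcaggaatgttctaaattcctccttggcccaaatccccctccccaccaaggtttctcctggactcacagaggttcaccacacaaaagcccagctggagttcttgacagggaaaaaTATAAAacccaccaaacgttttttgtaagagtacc
Cldn18, downstream start: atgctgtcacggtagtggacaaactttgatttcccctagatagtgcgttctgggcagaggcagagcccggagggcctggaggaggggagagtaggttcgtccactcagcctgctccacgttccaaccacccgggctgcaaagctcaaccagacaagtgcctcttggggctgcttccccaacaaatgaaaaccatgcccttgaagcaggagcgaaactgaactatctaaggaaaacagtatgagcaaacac
Cldn18, upstream start: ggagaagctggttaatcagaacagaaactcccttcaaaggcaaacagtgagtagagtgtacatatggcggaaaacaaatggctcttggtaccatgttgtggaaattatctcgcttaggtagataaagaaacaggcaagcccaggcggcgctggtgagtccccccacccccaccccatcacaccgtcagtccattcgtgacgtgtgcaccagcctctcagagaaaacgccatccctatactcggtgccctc
The Cldn2 window held TATAAA 35 bases before the start, and neither Cldn18 window held any of the 3 motifs, which says only that these letters were not in the windows. Among all 32851 RefSeq windows of this length, searched on both strands, TATAAA occurred in 12.4%, CACCTG in 17.2% and TGANTCA in 6.75%. In the 36 windows of the 24 members with an entry they occurred in 6, 10 and 4.

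Cldn8, Cldn15 and Cldn23 were low. Cldn8, a claudin of the kidney's collecting duct and the colon, was at 0.248, 0.211 and 0.200 CPM in the untreated and at 5.47, 0.777, 1.58 and 0.315 CPM in the post-caerulein libraries. The groups did not overlap, but post-caerulein 1 alone was above 2 CPM. Its log2 fold change was 2.78 ± 0.92 (SE) with the pair term (adjusted p = 0.178, edgeR's quasi-likelihood test). Cldn23 was at 11.3, 10.5 and 2.38 CPM in the untreated and at 5.67, 5.58, 5.22 and 2.38 CPM in the post-caerulein libraries. Untreated 3 and post-caerulein 4 had the lowest values, and in the other 5 libraries the groups did not overlap. Its log2 fold change was -0.72 ± 0.21 (SE) with the pair term (adjusted p = 0.144, edgeR's quasi-likelihood test). Cldn15, a pore-forming claudin of the intestine, stayed between 0.505 and 2.10 CPM. Cldn10, another pore-forming claudin, had 2 reads in all 7 libraries and was not tested.

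Cldn1, Cldn3 and Cldn12 varied by library more than by group. Cldn1, a sealing claudin of the skin, was at 14.5, 18.1 and 61.6 CPM in the untreated and 33.5, 29.4, 21.9 and 53.8 CPM in the post-caerulein libraries. Untreated 3 and post-caerulein 4 were its highest values. In the other 5 libraries Cldn1 was called higher (log2 fold change 0.81, adjusted p = 0.0431, edgeR's quasi-likelihood test), while post-caerulein 4 was below untreated 3 (log2 difference -0.20). Cldn3 was at 453, 435 and 242 CPM in the untreated and 390, 343, 357 and 199 CPM in the post-caerulein libraries, with a log2 fold change of -0.29 ± 0.09 (SE) with the pair term (adjusted p = 0.154, edgeR's quasi-likelihood test). Here untreated 3 and post-caerulein 4 were the lowest. Cldn12 was at 96.7 to 135 CPM and 106 to 113 CPM.

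**Figure D2:**
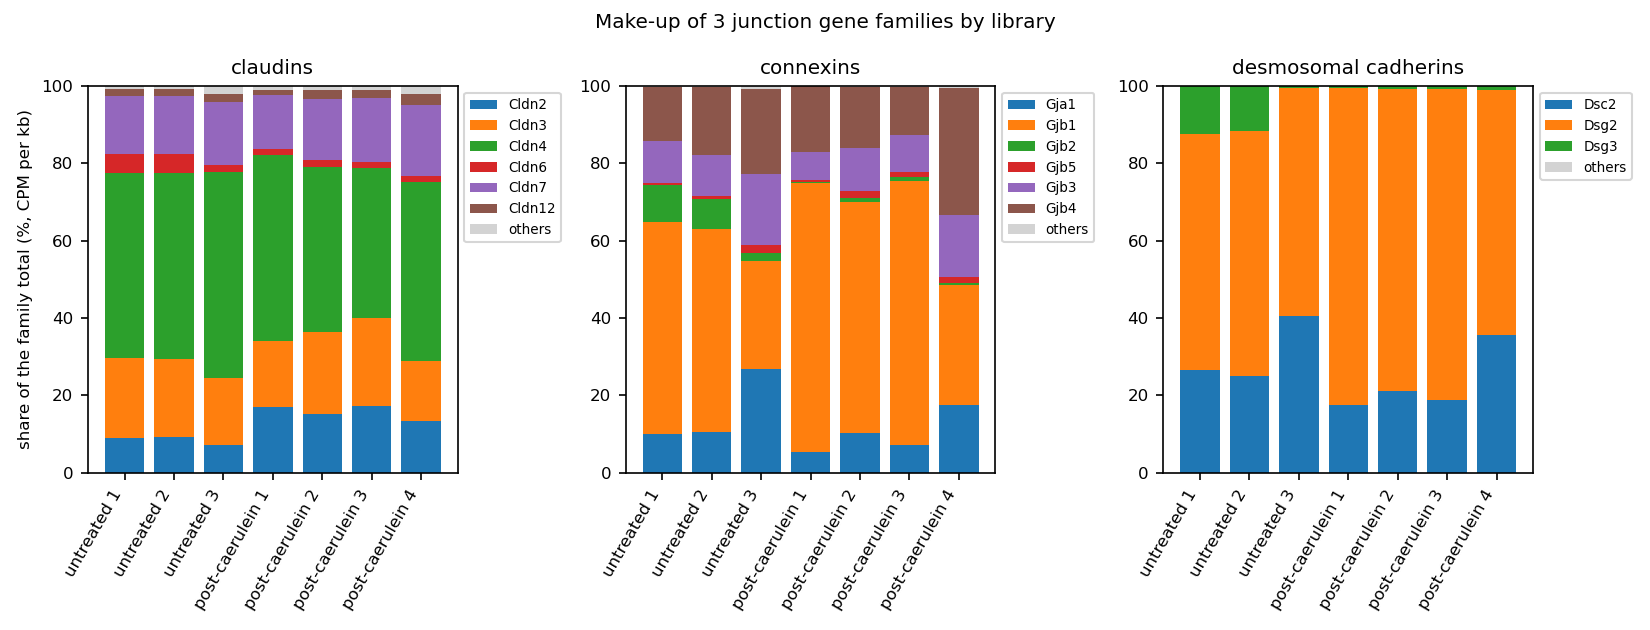
Share of each family's summed per-length level (percent) held by its main members in each library, for claudins, desmosomal cadherins and connexins. Cldn2 holds 7.17% to 9.10% of the claudins in the untreated and 13.3% to 17.4% in the post-caerulein libraries.

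None of the tight junction genes outside the claudins was called with the pair term by edgeR's quasi-likelihood test, where an unadjusted p under 0.05 named 2 of the 7, Tjp1 and Cgn, against 17.5% of all genes. DESeq2 and limma-voom both called Tjp1 with the pair term (adjusted p = 6.21e-06 and 0.0410). Tjp1, which encodes the scaffold protein that links claudins to actin, was at 695, 659 and 908 CPM in the untreated and 996, 952, 958 and 1201 CPM in the post-caerulein libraries. All post-caerulein values were above all untreated ones. The means were 754 ± 135 CPM (SD, n = 3) and 1027 ± 118 CPM (SD, n = 4). On the log2 scale the fold change was 0.48 ± 0.09 (SE) with the pair term (adjusted p = 0.0576) and 0.45 by treatment alone (adjusted p = 0.410), both by edgeR's quasi-likelihood test. The difference was 0.40 within the pair and 0.54 in the other 5 libraries, where it was called (adjusted p = 0.0122, edgeR's quasi-likelihood test).

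Cgn encodes cingulin, a cytoplasmic protein of the tight junction that binds the scaffold and myosin. Its level was 224, 282 and 203 CPM in the untreated and 395, 301, 278 and 275 CPM in the post-caerulein libraries. Untreated 2 lay inside the post-caerulein range. The log2 fold change was 0.38 ± 0.15 (SE) with the pair term (adjusted p = 0.247, edgeR's quasi-likelihood test). Tjp3, a second scaffold, was at 104 to 212 CPM and 108 to 249 CPM. Ocln, Marveld2 and Marveld3, which encode the MARVEL proteins of the strands, were at 117 to 268, 39.1 to 66.8 and 23.8 to 41.9 CPM in the untreated and 156 to 277, 46.9 to 64.2 and 28.3 to 31.7 CPM in the post-caerulein libraries. F11r, encoding junctional adhesion molecule A, was at 350 to 439 CPM and 377 to 603 CPM. Ocln, Tjp3, Marveld2 and F11r were lower in both untreated 3 and post-caerulein 4 than in all of the other 5 libraries.

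Epcam, whose protein binds and stabilises claudins, was at 508, 495 and 760 CPM in the untreated and 664, 568, 572 and 568 CPM in the post-caerulein libraries. Its log2 fold change with the pair term was 0.06 ± 0.15 (SE), and the groups overlapped. Cdh1, encoding E-cadherin, was the most abundant adhesion gene after Cldn4, at 471 CPM per kilobase. Its level was 1665, 1695 and 2019 CPM in the untreated and 2814, 2130, 2048 and 2232 CPM in the post-caerulein libraries. Post-caerulein 1 was the highest and the groups did not overlap. On the log2 scale the fold change was 0.38 ± 0.15 (SE) with the pair term, which was not called (adjusted p = 0.258, edgeR's quasi-likelihood test). Cdh3, encoding P-cadherin, was far lower, at 13.0, 12.2 and 64.5 CPM and 16.8, 34.8, 29.2 and 47.3 CPM. Untreated 3 and post-caerulein 4 had its highest values. The groups overlapped for the catenins that link cadherins to the cytoskeleton, with Ctnna1 at 829 to 918 and 900 to 1162 CPM, Ctnnd1 at 90.3 to 104 and 95.4 to 130 CPM, and Jup at 471 to 503 and 396 to 542 CPM. Of the 6433 exon bases of Ctnnd1, 4482 are shared with the predicted gene Gm28635, which had 0 counts in every library, so reads that overlap both genes may be missing from its level. Dsg2 shares 330 exon bases with Gm16090 and Dsp shares 499 with Gm10129, and no source used here states the strand setting of the counts.

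Of the desmosomal cadherins, 1 fell with the pair term and the summed level of the family was lower in every post-caerulein library. Summed per length over 9 genes, they were at 105, 99.1 and 86.2 CPM per kilobase in the untreated and 74.8, 71.4, 71.0 and 68.3 CPM per kilobase in the post-caerulein libraries. These sums did not overlap and were not tested. Dsg2, the most abundant of them, was at 420 to 527 and 357 to 508 CPM with a log2 fold change of -0.16 ± 0.09 (SE) with the pair term.

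Dsc2 encodes desmocollin 2, a desmosomal cadherin of simple and stratified epithelia, from chr18:20030633-20059554 of GRCm38 (ENSMUSG00000024331.11, minus strand). It was at 129, 114 and 161 CPM in untreated 1, 2 and 3 and at 60.5, 69.6, 61.9 and 113 CPM in post-caerulein 1 to 4. Every post-caerulein library was below every untreated one, although post-caerulein 4 was only just below untreated 2. The means were 135 ± 24.1 CPM (SD, n = 3) and 76.2 ± 24.8 CPM (SD, n = 4). The log2 fold change was -0.81 ± 0.11 (SE) with the pair term (adjusted p = 0.0278) and -0.82 by treatment alone (adjusted p = 0.310), both by edgeR's quasi-likelihood test. The log2 difference was -0.52 within the pair and -0.90 in the other 5 libraries. Leaving out any 1 of untreated 1, untreated 2 or post-caerulein 1 to 3 ended the call with the pair term, with an adjusted p of 0.221 at most.

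Dsg3 encodes a desmoglein of stratified squamous epithelium. It was at 53.2, 46.8 and 1.74 CPM in untreated 1, 2 and 3 and at 1.07, 2.39, 2.36 and 3.03 CPM in post-caerulein 1 to 4. Untreated 1 and 2 alone were high, and untreated 3 lay among the post-caerulein values. On the log2 scale the fold change was -3.54 ± 1.04 (SE) with the pair term (adjusted p = 0.141, edgeR's quasi-likelihood test). In the 5 libraries outside the pair Dsg3 fell by 4.65 on the log2 scale (adjusted p = 0.000458, edgeR's quasi-likelihood test), while post-caerulein 4 was above untreated 3 by 0.80.

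Markers of squamous and basal epithelium followed Dsg3 only in part. Of 10 markers 6 were tested, with 2 positive and 4 negative log2 fold changes with the pair term, 4 stayed under 1 CPM and Trp63 was at 0. Their summed level was 218, 193 and 43.4 CPM in untreated 1, 2 and 3 and 120, 119, 147 and 63.8 CPM in the post-caerulein libraries, with Sprr1a the most abundant. Untreated 1 and 2 had the highest sums, but post-caerulein 1 to 3 were well above untreated 3, unlike for Dsg3. Krt13 was at 36.6, 28.6 and 0.289 CPM in the untreated and at most 0.982 CPM in the post-caerulein libraries, and fell with the pair term (log2 fold change -5.54, adjusted p = 0.0159, edgeR's quasi-likelihood test). Their part in the Dsg3 and Dsc2 results was not tested.

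None of the 6 desmosomal plaque genes was called with the pair term by edgeR's quasi-likelihood test, where an unadjusted p under 0.05 named 1 of 6, no larger a share than the 17.5% of all genes. That gene was Pkp1. Pkp1, a plakophilin that joins the cadherins to desmoplakin, was at 125, 112 and 183 CPM in the untreated and 103, 107, 105 and 114 CPM in the post-caerulein libraries. Untreated 3 was the highest, and post-caerulein 4 just exceeded untreated 2. Its log2 fold change was -0.33 ± 0.12 (SE) with the pair term (adjusted p = 0.203, edgeR's quasi-likelihood test). Pkp2 was at 101 to 143 and 108 to 158 CPM, and Pkp3 at 113 to 123 and 101 to 136 CPM. Dsp, encoding desmoplakin, which anchors keratin filaments, was at 525 to 693 and 571 to 843 CPM. Ppl and Evpl, encoding the plakins periplakin and envoplakin, were at 518 to 1011 and 69.4 to 105 CPM in the untreated and 740 to 993 and 82.5 to 98.0 CPM in the post-caerulein libraries. Dsc3, a desmocollin of basal layers, had at most 8 reads in a library and was not tested.

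Of the connexins, Gjb2 fell with the pair term, and Gjb1 differed in the opposite direction without passing that test. Gjb1 (ENSMUSG00000047797.14, chrX:101376378-101385629, plus strand) encodes a connexin of acinar cells and liver. It was at 74.3, 70.2 and 55.8 CPM in untreated 1, 2 and 3 and at 410, 165, 220 and 90.5 CPM in post-caerulein 1 to 4. Every post-caerulein library was above every untreated one, with post-caerulein 1 the highest and post-caerulein 4 the lowest of its group. The means were 66.8 ± 9.71 CPM (SD, n = 3) and 221 ± 137 CPM (SD, n = 4), a ratio of 3.31. The log2 fold change was 1.53 ± 0.37 (SE) with the pair term, which missed the threshold (adjusted p = 0.0944), and 1.73 by treatment alone (adjusted p = 0.282), both by edgeR's quasi-likelihood test. DESeq2 called Gjb1 higher with the pair term and by treatment alone (adjusted p = 0.000244 and 0.00913). The difference was 0.70 within the pair and 1.90 in the other 5 libraries, where Gjb1 rose (adjusted p = 0.0203, edgeR's quasi-likelihood test).

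The summed level of the acinar markers was very low, and higher in every post-caerulein library. They summed to at most 2.10 CPM in the untreated and to 9.87, 3.11, 4.72 and 12.3 CPM in the post-caerulein libraries, with Ctrb1 the most abundant. Of the 3 tested, Ctrb1 was called higher with the pair term, and of the 3 log2 fold changes 2 were positive and 1 negative. Post-caerulein 4 had the highest acinar sum and the lowest Gjb1 of its group. Their part in the Gjb1 result was not tested.

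Gjb2 encodes a connexin of skin, liver and the inner ear. The gene (ENSMUSG00000046352.7) spans chr14:57098600-57104702 on the minus strand of GRCm38. It was at 18.1, 14.7 and 5.70 CPM in untreated 1, 2 and 3 and at 2.80, 4.33, 5.22 and 2.50 CPM in post-caerulein 1 to 4. All post-caerulein values were below all untreated ones, with untreated 3 only just above post-caerulein 3. The means were 12.8 ± 6.43 CPM (SD, n = 3) and 3.71 ± 1.29 CPM (SD, n = 4), a ratio of 0.289. On the log2 scale the fold change was -1.77 ± 0.26 (SE) with the pair term (adjusted p = 0.0310) and -1.79 by treatment alone (adjusted p = 0.262), both by edgeR's quasi-likelihood test. The log2 difference was -1.19 within the pair and -1.96 in the other 5 libraries. Leaving out untreated 1, untreated 2, post-caerulein 2 or post-caerulein 3 ended the call with the pair term, with an adjusted p of 0.233 at most.

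The windows before the Gjb2 start and before the most downstream of the 4 RefSeq starts of Gjb1 are shown because these 2 genes differed in opposite directions. Capitals again mark TATAAA and the E-box CACCTG in either orientation. They lie at chrX:101383482-101383731 on the plus strand and at chr14:57104703-57104952 on the minus strand of GRCm38.p6.
Gjb1: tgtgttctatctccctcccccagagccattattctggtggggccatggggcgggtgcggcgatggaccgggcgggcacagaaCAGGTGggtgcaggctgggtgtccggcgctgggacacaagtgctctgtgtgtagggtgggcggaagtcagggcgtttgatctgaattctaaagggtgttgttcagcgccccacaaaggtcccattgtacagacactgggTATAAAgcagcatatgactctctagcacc
Gjb2: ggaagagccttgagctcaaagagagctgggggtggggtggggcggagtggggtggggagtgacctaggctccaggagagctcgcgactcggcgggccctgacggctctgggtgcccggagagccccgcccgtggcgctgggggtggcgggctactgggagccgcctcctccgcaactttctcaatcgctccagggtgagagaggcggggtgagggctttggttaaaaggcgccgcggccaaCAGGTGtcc
Both windows held the E-box in the orientation CAGGTG, 168 bases before the Gjb1 start and 9 bases before the Gjb2 start, and the Gjb1 window also held TATAAA 29 bases before its start. The other 3 Gjb1 windows held none of the 3 motifs.

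Gja1, the most widely expressed connexin, was at 26.7, 28.0 and 106 CPM in the untreated and 63.4, 56.2, 46.2 and 101 CPM in the post-caerulein libraries. Untreated 3 and post-caerulein 4 were its highest libraries, and in the other 5 the post-caerulein values were all higher. Its log2 fold change was 0.69 ± 0.23 (SE) with the pair term (adjusted p = 0.173, edgeR's quasi-likelihood test). Gjb5, a connexin of skin and trophoblast, was at 0.866, 1.05 and 4.12 CPM in the untreated and 3.25, 5.08, 4.45 and 4.71 CPM in the post-caerulein libraries. Untreated 3 alone of the untreated libraries reached the post-caerulein range. The log2 fold change of Gjb5 was 1.53 ± 0.43 (SE) with the pair term (adjusted p = 0.127, edgeR's quasi-likelihood test).

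Over 20 connexin genes, the summed per-length level was 79.3, 78.5 and 117 CPM per kilobase in the untreated and 346, 162, 189 and 171 CPM per kilobase in the post-caerulein libraries, without overlap. Gjb1 held 54.9%, 52.4% and 27.9% of it in the untreated and 69.4%, 59.7%, 68.0% and 31.0% in the post-caerulein libraries, and the lowest shares were those of untreated 3 and post-caerulein 4. Gjb2 held 9.51%, 7.78% and 2.02% and then 0.337%, 1.11%, 1.15% and 0.607%. The per-length ratio of Gjb1 to Gjb2 was 5.77, 6.73 and 13.8 in the untreated and 206, 53.7, 59.2 and 51.0 in the post-caerulein libraries. These are descriptions with no test.

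**Figure D3:**
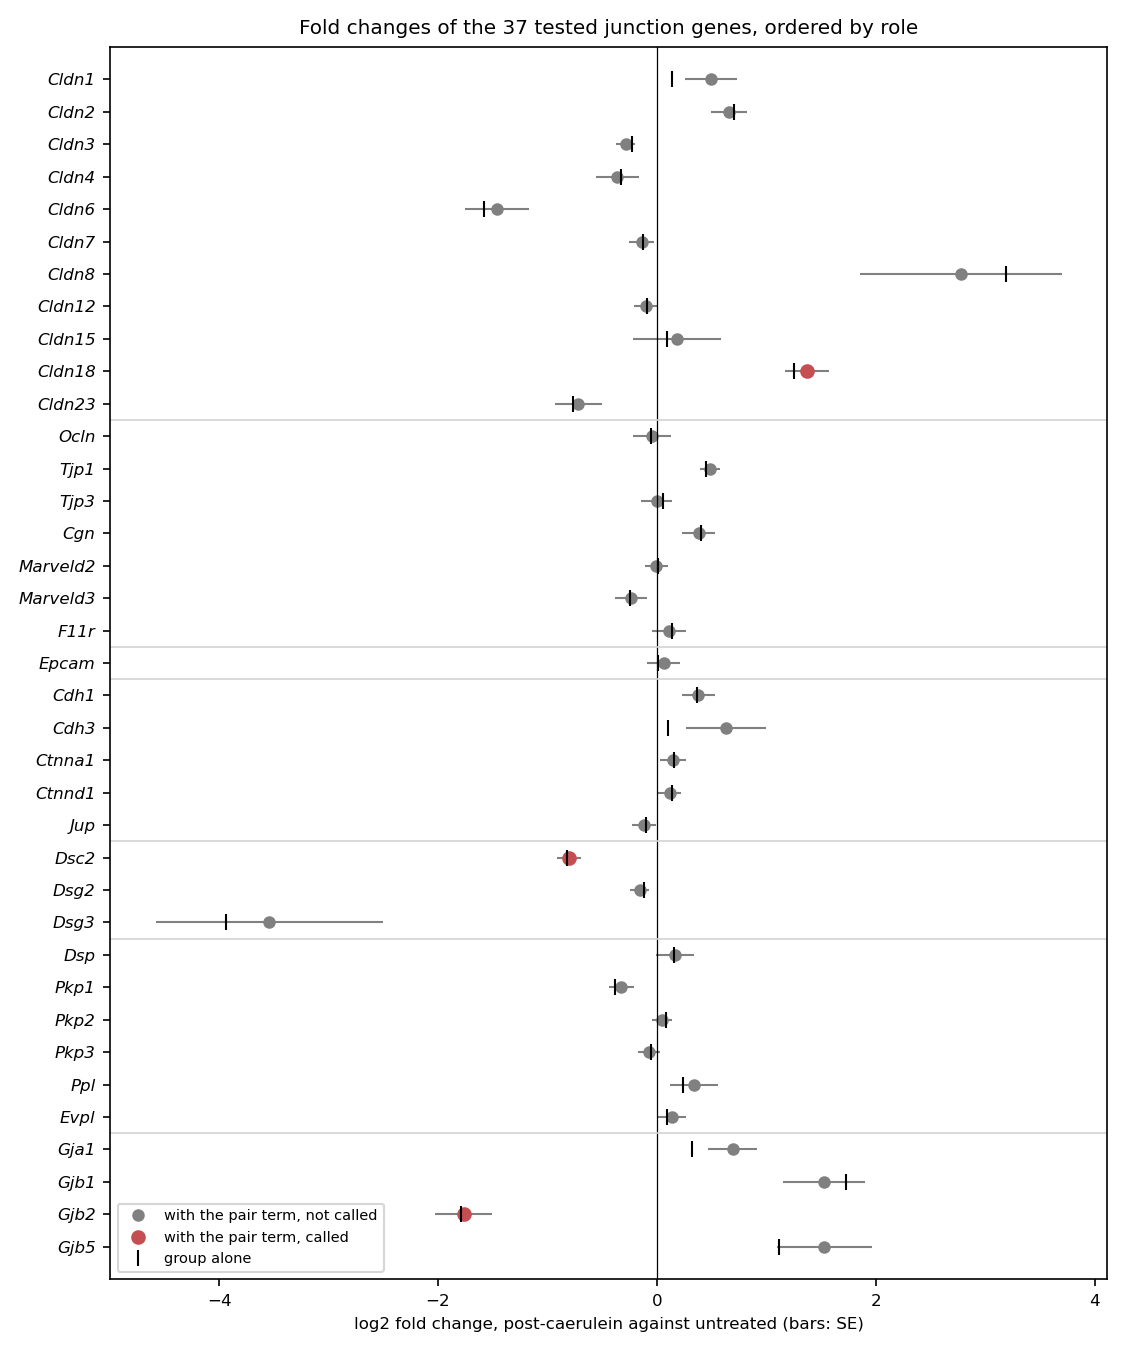
Log2 fold change of the tested junction genes, post-caerulein over untreated, with the standard error as bars, by treatment alone and with the pair term. With the pair term the 3 called genes are Cldn18 at 1.37, Dsc2 at -0.81 and Gjb2 at -1.77.

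The share of junction genes that set untreated 3 and post-caerulein 4 apart was near that of all genes. Both lay above the other 5 for 4 members (Cldn1, Cldn15, Cdh3 and Gja1) and below them for 11 (Cldn2, Cldn3, Cldn7, Cldn23, Ocln, Tjp3, Marveld2, F11r, Ctnnd1, Dsg2 and Pkp2), together 40.5% of the tested members against 36.1% of all genes. In the 5 libraries outside the pair edgeR's quasi-likelihood test called 13 of 37 members, against 13.8% of 16276 genes. Cldn1, Cldn18, Tjp1, Ppl, Gja1, Gjb1 and Gjb5 rose, and Cldn6, Cldn23, Marveld3, Dsc2, Dsg3 and Gjb2 fell. This comparison has 2 untreated libraries, which lay close together, against 3. For 14 members the log2 difference between post-caerulein 4 and untreated 3 had the opposite sign to that in the other 5 libraries, among them Cldn1 (-0.20 against 0.81), Ppl (-0.37 against 0.65), Gja1 (-0.07 against 1.04) and Dsg3 (0.80 against -4.65). Cldn18, Tjp1 and Gjb1 were higher, and Cldn6, Dsc2 and Gjb2 lower, in both.

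**Figure D4:**
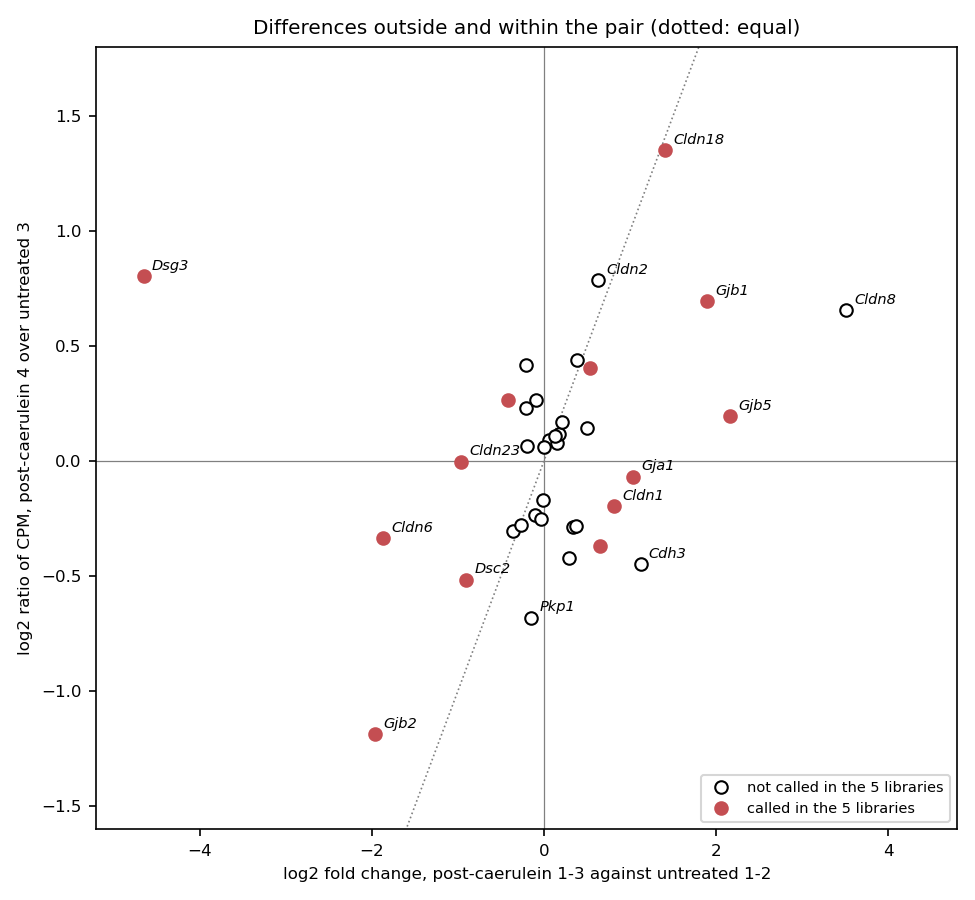
Log2 difference of each tested junction gene in the 5 libraries outside the pair (horizontal axis) against the log2 difference of post-caerulein 4 over untreated 3 (vertical axis). Cldn18 lies at 1.40 and 1.35, while Dsg3 lies at -4.65 and 0.80.

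The authors' deposited table listed 36 members and called 10 of them at a false discovery rate under 0.05, against 7.88% of its 12983 genes. Cldn2, Cldn18, Tjp1, Gja1, Gjb1 and Gjb5 were higher in the authors' deposited table and Cldn6, Dsc2, Dsg3 and Gjb2 lower. Its log2 fold changes ran from -3.59 for Dsg3 to 1.56 for Gjb5 in the authors' deposited table, with -1.75 for Gjb2 (false discovery rate 4.71e-07) and 1.54 for Gjb1 (false discovery rate 2.56e-05).

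Other genes of these junctions were tested with the same fit. Of 20 other tight junction, tricellular and polarity genes, 1 rose with the pair term: Mpdz, a multi-PDZ scaffold, had a log2 fold change of 1.55 ± 0.28 (SE; adjusted p = 0.0497, edgeR's quasi-likelihood test). It was at 1.06, 1.73 and 5.52 CPM in the untreated and 4.68, 5.88, 4.53 and 10.5 CPM in the post-caerulein libraries, so untreated 3 overlapped the post-caerulein group. Of 10 other adherens junction genes, Nectin3, an immunoglobulin-like adhesion protein, rose by 1.19 ± 0.18 (SE) on the log2 scale (adjusted p = 0.0335, edgeR's quasi-likelihood test). It was at 2.10, 2.72 and 4.76 CPM in the untreated and 6.39, 5.33, 5.44 and 9.96 CPM in the post-caerulein libraries, which did not overlap. With the pair term edgeR's quasi-likelihood test called none of the 6 tested desmosome and hemidesmosome genes. Nor did it call any of the 5 tested other connexins and pannexins or the 1 tested other claudin. An unadjusted p under 0.05 in that test named 2, 2 and 0 of them, against 17.5% of all genes.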

How the data were processed

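RNA from 3 untreated and 4 post-caerulein spheroid libraries was sequenced after poly-A selection. Raw counts of each gene in each library were deposited with exon coordinates, per the file headers. The submitters' processing notes name featureCounts 0.6.1 and the build GRCm38 (mm10). No aligner or strand setting is given in the sources used here. The authors' deposited edgeR table (version 3.2.2, per the submitters' processing notes) gives log2 fold changes and mean log2 CPM, a likelihood ratio score, and a p-value and false discovery rate per gene, per the file headers. No source used here states its design.

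Of 54446 gene identifiers, 54409 were joined to a symbol of GENCODE M21, and all 39 members matched. Genes passing filterByExpr (minimum count 10, minimum total 15), 16438 in all, were scaled by TMM and tested two-sided with the robust quasi-likelihood test of edgeR 4.0.16 (R 4.3.3). P-values were adjusted over all of them by the Benjamini-Hochberg method, and genes under 0.05 were called. Fold changes are coded post-caerulein over untreated. Levels per kilobase use exon length. Floors of 3 reads cover counting error only. The model was tested on simulated data.

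Treatment alone was the first model, and a term for untreated 3 and post-caerulein 4 was the second, with the other 5 libraries alone as a further comparison. Members named with tests were those called in either model, with an unadjusted p under 0.05 in either, or with groups that did not overlap. Genes of other lists were named when called with the pair term, at most 3 per list, or as the most abundant marker. The members and lists were chosen with earlier results of these data known. Alternatives were DESeq2 1.42.0, limma-voom (limma 3.58.1), other scalings and filters, a replicate block and leaving out each library. Promoter windows came from RefSeq on GRCm38.p6, where 24 of 39 members had an entry. Figures were drawn with matplotlib 3.10.9.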

Additional observations from a re-analysis of the deposited data

Results flagged for a closer look

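In 2 of the 16 named members, post-caerulein 4 stood farther from the other 3 post-caerulein libraries than the 95% critical value of Dixon's test allows. For Cldn18 post-caerulein 4 had 6.71 CPM and the rest of the group 2.77 to 3.03 CPM, and the gap made up 0.935 of the group's range. For Cldn23 it had 2.38 CPM and the rest 5.22 to 5.67 CPM, a gap of 0.866 of the range. Chance passes the critical value in about 1 of 20 groups. Post-caerulein 4 is the library that the pair term sets apart with untreated 3.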

How the results depend on the processing

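Treatment alone called 0 genes and 0 members, and the 5 libraries outside the pair gave 2247 genes and 13 members, DESeq2 509 and 5, and no filter on low counts 23 genes. Leaving out 1 library gave 0 to 1149 genes and 0 to 6 members, and both maxima came without untreated 3. With the pair term, 251 genes and 3 members were called. DESeq2 gave 1389 genes and 13 members, no filter 602 and 5, and a strict filter (50 counts in 3 libraries) 138 genes. limma-voom gave 337 genes and 5 members. The replicate block gave 1184 genes and 9 members, and took Cldn18 above the threshold (adjusted p = 0.0609, edgeR's quasi-likelihood test). Beside the pair term, the replicate terms left no free variation in the other libraries. Treatment in that fit thus rested only on untreated 1 and untreated 2 against post-caerulein 1 and post-caerulein 2, so it is not an alternative on all the data. Summing the close libraries, an alternative chosen after seeing the data, gave 0 genes and 0 members, with an adjusted p of 0.559 for Cldn18, Dsc2 and Gjb2 in edgeR. Leaving out 1 library gave 0 to 2267 genes and 0 to 14 members, and both maxima came without untreated 3, where treatment rested on the 5 libraries outside the pair. Treatment rested on fewer libraries in the last 3 alternatives, and what moved the counts of calls was not tested. Replicate numbers did not pair the libraries: the correlations of same-numbered deviations were 0.372, 0.141 and -0.21. For the 16 named members, 1 value reversed: the log2 fold change of Gja1 by treatment alone was -0.0035 without untreated 1 and 1.31 without untreated 3, against 0.32 with all libraries. Over all their alternatives, 234 values by treatment alone kept direction and side of the threshold and 20 newly passed it. With the pair term 186 did, 35 newly passed and 18 no longer did. Scaling moved the median of all genes by under 0.1 on the log2 scale. Low genes such as Cldn8 rest on few reads.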

Other observations

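Factors that control junction genes were also measured. Of 12 tested, 1 fell with the pair term: Elf3, an epithelial ETS factor, had a log2 fold change of -1.51 ± 0.16 (SE, adjusted p = 0.0205, edgeR's quasi-likelihood test). Elf3 was at 511, 510 and 191 CPM in untreated 1, 2 and 3 and at 207, 137, 148 and 82.9 CPM in post-caerulein 1 to 4. Untreated 3 lay within the post-caerulein range, as it did for Cldn6 and Dsg3. None of 8 tested genes that cleave or shed junction proteins was called by edgeR's quasi-likelihood test, and 0 of them had an unadjusted p under 0.05. Over all lists of other junction genes, factors and proteases, 2 of 62 tested genes rose and 1 fell (4.84%, against 1.53% of all genes).

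The 10 mitosis genes summed to 521 to 744 CPM in the untreated and 376 to 843 CPM in the post-caerulein libraries. The 10 immediate early and dissociation genes summed to 1103 to 1893 CPM and 1005 to 1355 CPM, and untreated 3 and post-caerulein 4 were the highest of their groups.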
